A study of Mus musculus with 9 samples.

Results

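The intervals on mouse chromosome 11 were taken from 5 lists of enriched intervals from chromatin immunoprecipitation (ChIP-seq), an assay that sequences the DNA fragments an antibody recovers along with its target protein. Every listed interval on that chromosome was kept, with no filter on fold or p, which gave 24583 of the 142062 intervals listed over all chromosomes. MTX library 1 held 4338 of its 24177 intervals there, MTX library 2 5685 of 28976, control library 1 5604 of 44838, control library 2 5197 of 21228 and the IgG library 3759 of 22843.

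The cells were Sv129 mouse embryonic stem cells, a single line grown with leukemia inhibitory factor. The MTX group (n = 2) was labelled with the genotype folate deficiency and had 0.12 µM MTX in the medium for 24 h before collection. The IgG library (n = 1) came from MTX cells and carries the number 1 in its title, like MTX library 1. The control group (n = 2) was labelled WT. Every sample, control included, carried neurodevelopment as its treatment label. KDM6A was pulled down in the MTX and control groups, and IgG is a nonspecific antibody that measures background. The comparisons ask where KDM6A intervals lay and whether they differed with MTX. The labels do not say whether the libraries within a group were separate cultures. Their spread may thus be technical, and p-values measure only that spread. Interval lists hold no expression values, so the labelled cell type could not be checked against its markers. Each list gives 2 whole-number columns per interval without a header. The first is read here as the library's own immunoprecipitated reads and the second as background reads, since the deposited fold is the first over the second times 1 constant per list (1.07 in MTX 1, 1.12 in MTX 2, 1.32 in control 1, 1.04 in control 2 and 1.04 in IgG). Log2 ratios use the counts as deposited, without that constant. The IgG library and MTX library 1 had equal background counts at 3 of the 3 chromosome 11 intervals with the same start and end, so their ratios share a background.

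KDM6A, also called UTX, removes methyl groups from lysine 27 of histone H3 and works within the KMT2C and KMT2D complexes. That methyl mark is set by Polycomb repressive complexes, whose subunits include Suz12, encoded on chromosome 11. In embryonic stem cells the mark covers many developmental regulators, and homeobox gene clusters are well known examples. Chromosome 11 carries one of these, Hoxb, along with the type I keratin, Ccl chemokine and Schlafen clusters and several groups of olfactory receptor genes.

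Promoters are shown first because they are where an interval meets a named sequence. The 250 bases upstream of each start were read from RefSeq (GRCm38.p6) for 2289 starts of 1865 symbols on chromosome 11, and 8 of them had an interval in all 4 KDM6A libraries. Among the genes of these 8 were Gpr75, Olfr1384, Zfp287, Efcab13, Ccdc47 and Ddx42. Sequences of 5 of them are given 5′ to 3′ with the dinucleotide CG in capitals, because the libraries differed in how many CG their promoters held. They lie at chr11:30885108-30885357 (Gpr75, + strand), chr11:49513368-49513617 (Olfr1384, + strand), chr11:104690584-104690833 (Efcab13, + strand), chr11:106216368-106216617 (Ccdc47, − strand) and chr11:106216676-106216925 (Ddx42, + strand).
Gpr75: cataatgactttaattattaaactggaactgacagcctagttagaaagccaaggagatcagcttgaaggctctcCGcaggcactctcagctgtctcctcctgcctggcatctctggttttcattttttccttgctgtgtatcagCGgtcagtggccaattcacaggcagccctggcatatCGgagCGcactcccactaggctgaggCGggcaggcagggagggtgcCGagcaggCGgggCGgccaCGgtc
Olfr1384: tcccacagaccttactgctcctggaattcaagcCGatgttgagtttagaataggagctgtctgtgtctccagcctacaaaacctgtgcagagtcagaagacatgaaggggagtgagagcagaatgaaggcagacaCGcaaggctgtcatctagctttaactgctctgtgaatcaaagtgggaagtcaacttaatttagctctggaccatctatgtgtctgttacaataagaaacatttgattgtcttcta
Efcab13: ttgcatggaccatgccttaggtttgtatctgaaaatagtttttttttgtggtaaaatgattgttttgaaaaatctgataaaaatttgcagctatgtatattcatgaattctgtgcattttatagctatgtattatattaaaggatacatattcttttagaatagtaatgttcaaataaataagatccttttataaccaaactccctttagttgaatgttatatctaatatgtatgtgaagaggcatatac
Ccdc47: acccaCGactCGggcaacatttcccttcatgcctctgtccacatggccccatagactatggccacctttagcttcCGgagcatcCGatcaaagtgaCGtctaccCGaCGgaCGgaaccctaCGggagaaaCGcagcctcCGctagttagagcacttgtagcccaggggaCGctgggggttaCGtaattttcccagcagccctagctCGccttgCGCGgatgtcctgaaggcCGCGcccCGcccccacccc
Ddx42: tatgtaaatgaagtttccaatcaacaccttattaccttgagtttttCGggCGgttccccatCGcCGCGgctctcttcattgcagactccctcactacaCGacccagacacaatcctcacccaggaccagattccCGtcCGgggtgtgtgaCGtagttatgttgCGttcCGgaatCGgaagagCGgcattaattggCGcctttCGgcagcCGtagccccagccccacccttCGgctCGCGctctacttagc

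The 5 promoters differed widely in base composition. Ccdc47 and Ddx42 are neighbours read in opposite directions, and each had 19 CG. Gpr75, a G protein-coupled receptor gene, had 9 CG, the olfactory receptor gene Olfr1384 had 2, and Efcab13 had 0. CG was searched as those 2 letters, which read the same on both strands, and 94.9% of all chromosome 11 promoters held at least 1. The presence of CG in a window is a description of its letters and says nothing of what bound there.

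Own reads were close to background at these promoters, and which side they lay on depended on the scaling in some libraries. At Gpr75 the log2 ratio of own to background reads, computed as log2((own + 1)/(background + 1)), was −0.04 in MTX 1, −0.50 in MTX 2, −0.17 in control 1, 0.29 in control 2 and 0.23 in IgG. The deposited fold there was 1.04 in MTX 1, 0.793 in MTX 2, 1.18 in control 1, 1.27 in control 2 and 1.22 in IgG, so MTX 1 and control 1 lay above 1 on that scale. The interval at Olfr1384 had 309 own and 277 background reads in MTX 1, 109 and 90 in MTX 2, 94 and 108 in control 1, and 91 and 79 in control 2, and IgG had none there. The deposited fold at Olfr1384 was above 1 in all 4 libraries, between 1.15 and 1.36. In each library 1 interval overlapped both the Ccdc47 and Ddx42 promoters, and its log2 ratio was 0.10 in MTX 1, −0.13 in MTX 2, −0.46 in control 1, −0.11 in control 2 and 0.29 in IgG, with deposited folds of 1.15, 1.03, 0.962, 0.966 and 1.27 in the same order. Olfactory receptors are a multigene family whose reads can map to more than 1 copy, so values at Olfr genes are uncertain.

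Chromosome 11 was the autosome with the most intervals per Mb in every library. The density was 35.6 intervals per Mb in MTX 1, 46.6 in MTX 2, 46.0 in control 1, 42.6 in control 2 and 30.8 in IgG. The next densest autosome had 11.7, 13.0, 21.7, 8.89 and 12.2 in the same order of libraries. Intervals covered 14.2% of chromosome 11 in MTX 1, 20.5% in MTX 2, 15.5% in control 1, 20.3% in control 2 and 13.8% in IgG, and between 2.80% and 5.09% of the other autosomes.

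Relative to the other autosomes the density on chromosome 11 was 4.20 times in MTX 1, 4.69 times in MTX 2, 2.74 times in control 1, 6.23 times in control 2 and 3.78 times in IgG. The control libraries were the lowest and the highest of the 4 KDM6A libraries, so the MTX values lay between them. The mean was 4.44 ± 0.35 in MTX and 4.49 ± 2.47 in control libraries (SD, n = 2 each), a difference of −0.04 that lay well within the spread of the control group (two-sided exact permutation test, p = 1, where 0.33 is the smallest p that 2 against 2 allows). Intervals were also dense in IgG, within the range of the KDM6A libraries. The excess on chromosome 11 was smaller among stronger intervals. With a deposited adjusted p under 0.05 the density was 3.26 times in MTX 1, 3.44 times in MTX 2, 2.19 times in control 1 and 4.48 times in control 2.

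The read ratio on chromosome 11 was lower than elsewhere. The median log2 ratio was 0.23 on chromosome 11 and 0.45 on the other autosomes in MTX 1, 0.17 and 0.47 in MTX 2, 0.05 and 0.32 in control 1, 0.22 and 0.47 in control 2, and 0.30 and 0.56 in IgG. It was the lowest of the 19 autosomes in each of the 5 libraries. The mean difference over the 4 KDM6A libraries was −0.26 ± 0.03 (SD, n = 4), with the same sign in 4 of 4 (two-sided exact sign permutation test, p = 0.13, the smallest that 4 libraries allow), and IgG had −0.27. MTX and control libraries did not separate, with means of −0.263 and −0.264.

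The lower ratio came with more background reads. Within chromosome 11 intervals the median background count was 30.0 reads per kb in MTX 1, 32.8 in MTX 2, 28.6 in control 1, 30.9 in control 2 and 29.2 in IgG, the highest of the 19 autosomes in each library. It was 1.28 ± 0.07 times that of the other autosomes in MTX, 1.27 ± 0.02 times in control (SD, n = 2 each) and 1.26 times in IgG. Own reads per kb were 1.05 times those of the other autosomes in both the MTX and the control mean and 1.04 times in IgG. These medians cover only bases inside listed intervals, since the lists hold no reads outside them. Background reads were thus highest on the autosome where intervals were densest, and their part in the density was not tested. The copy number of the chromosome in these cells was not analysed here.

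More intervals were below their background on chromosome 11 than elsewhere, and the share depended on the scaling. A log2 ratio below 0 was found in 22.9% of chromosome 11 intervals in MTX 1, 30.5% in MTX 2, 44.3% in control 1, 20.6% in control 2 and 17.1% in IgG, against 9.31%, 8.73%, 21.6%, 6.04% and 5.34% on the other autosomes. A deposited fold below 1 was found in 14.5%, 15.0%, 10.2%, 15.3% and 13.2% of chromosome 11 intervals in the same order of libraries, against 5.05%, 2.92%, 3.13%, 4.24% and 4.04% on the other autosomes. Control 1, which had the highest share on the counts as deposited, had the lowest on chromosome 11 by the deposited fold. The deposited adjusted p was under 0.05 in 60.7% to 69.7% of chromosome 11 intervals per library and in 82.1% to 88.3% on the other autosomes. Intervals were of similar width, with medians of 3000 to 4200 bp on chromosome 11 and 2800 to 3800 bp elsewhere.

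Along the chromosome the density fell into a sparse stretch and a dense remainder. Windows of 1 Mb were counted from position 1, and 119 of the 122 windows held intervals, the first 3 being empty. A run of 22 windows from 81 to 103 Mb, chosen after the window counts were seen, had a median of 14.1 intervals per window (mean of the 4 KDM6A libraries, range 1.75 to 34). The other 97 windows had a median of 49.8 (20.5 to 100.5), and the windows of the other autosomes 8.5. Of the 119 windows, 92 lay above the 95th percentile of the other autosomes, which was 25.8 intervals, and these were 3 of the 22 sparse windows and 89 of the 97 others. The highest window of any other autosome had a mean of 71 intervals, and 12 chromosome 11 windows were above it. Since the stretch was picked from these counts, they describe it and test nothing.

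**Figure D1:**
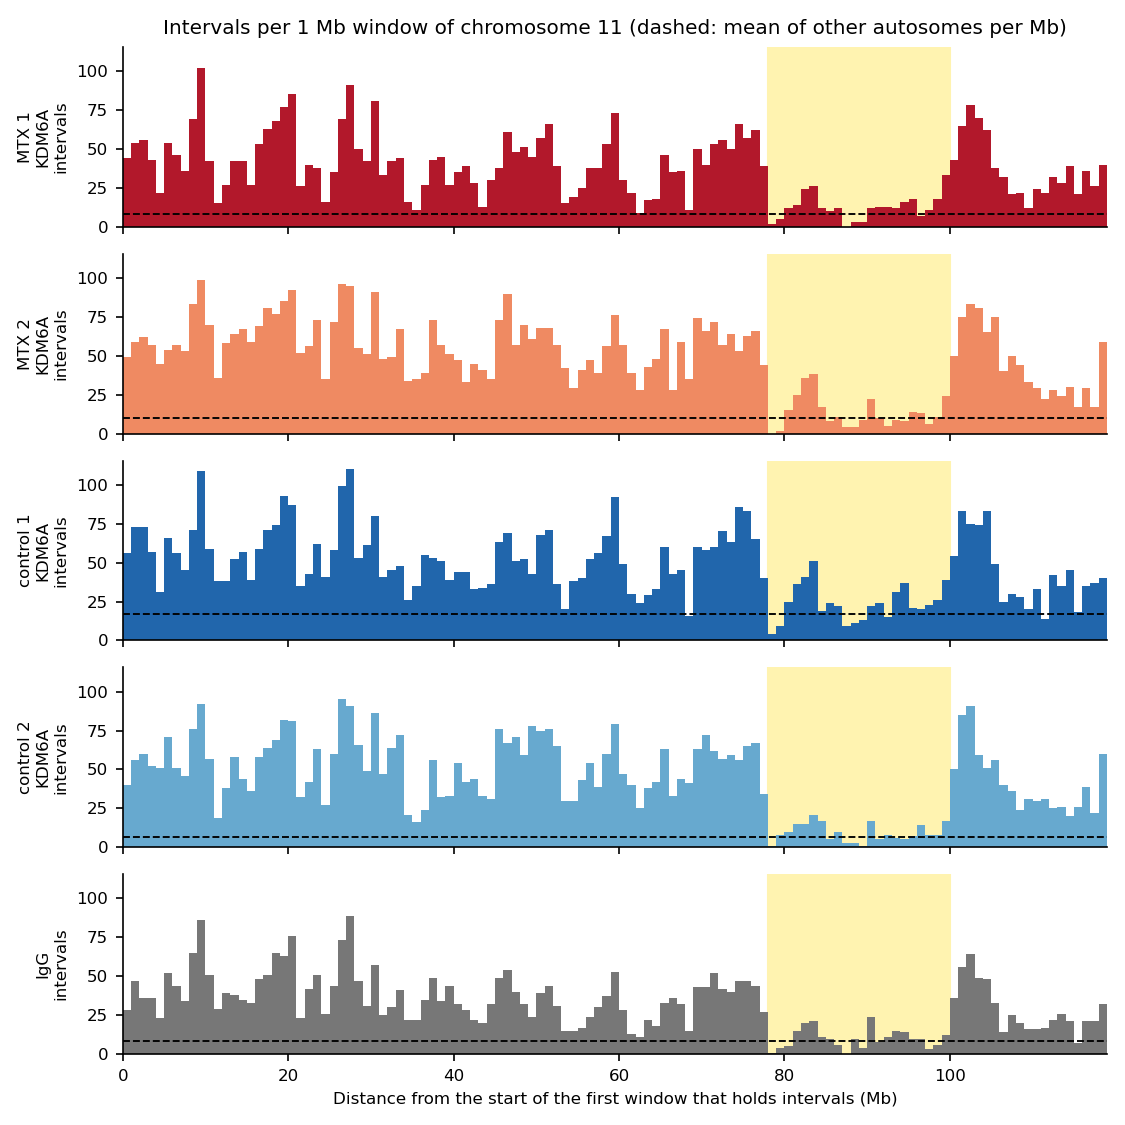
Number of intervals in each 1 Mb window of chromosome 11 (y axis) against the distance from the first window that holds intervals (x axis, Mb), with 1 row per library and a dashed line at the mean density of the other autosomes in that library. The shaded 22 windows have a median of 14.1 intervals over the KDM6A libraries, against 49.8 in the other 97, and the dip appears in all 5 libraries, IgG included.

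The sparse stretch was close to the other autosomes in density. It held 12.5 intervals per Mb in MTX 1, 13.2 in MTX 2, 23.7 in control 1, 9.27 in control 2 and 10.0 in IgG. This was 1.41 ± 0.11 times the density of the other autosomes in MTX, 1.39 ± 0.04 times in control (SD, n = 2 each) and 1.23 times in IgG. The rest of chromosome 11 had 5.11 ± 0.44 times in MTX, 5.17 ± 3.02 times in control and 4.35 times in IgG. Genes were not fewer in the stretch, with 19.9 protein-coding genes per Mb there and 12.0 in the other windows.

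Background reads were higher than on the other autosomes in both parts of the chromosome, and more so outside the stretch. Their median per kb was 1.12 times that of the other autosomes in MTX (SD 0.0064), 1.12 times in control (SD 0.074) and 1.15 times in IgG within the stretch. In the rest of the chromosome it was 1.29 times in MTX (SD 0.074), 1.28 times in control (SD 0.014) and 1.27 times in IgG. Own reads per kb were 1.01 times in MTX, 1.00 times in control and 0.994 times in IgG within the stretch, and 1.06, 1.05 and 1.05 times in the same order in the rest. The median log2 ratio was 0.29 in MTX 1, 0.33 in MTX 2, 0.11 in control 1, 0.38 in control 2 and 0.36 in IgG within the stretch, against 0.23, 0.16, 0.05, 0.21 and 0.29 in the rest.

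**Figure D2:**
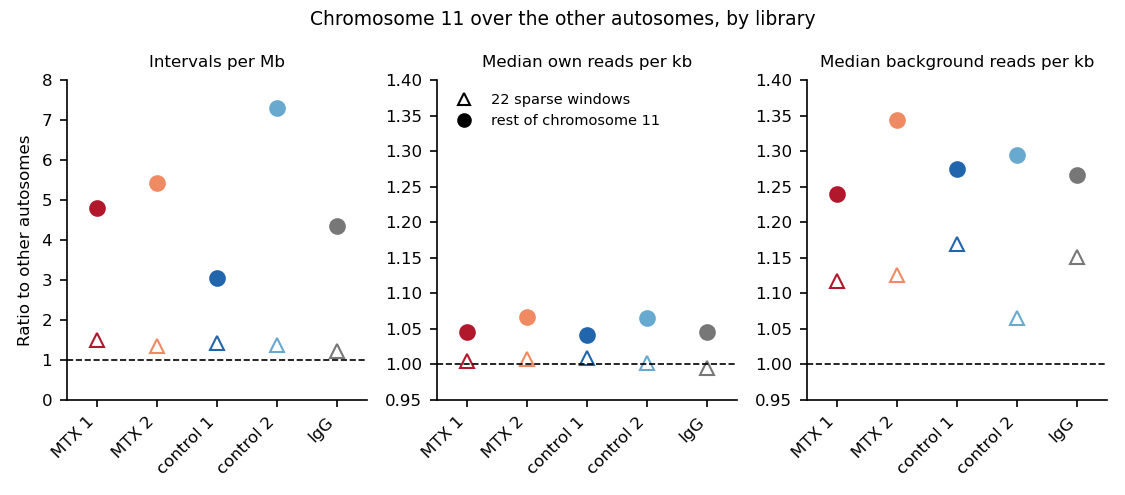
Intervals per Mb, median own reads per kb and median background reads per kb of chromosome 11 as ratios to the other autosomes (y axes, no unit; dashed line at 1) in each library (x axis), for the 22 sparse windows (open triangles) and the rest of the chromosome (filled circles). The sparse windows have densities of 1.23 to 1.48 times and background of 1.06 to 1.17 times, against 3.03 to 7.30 and 1.24 to 1.34 times in the rest, while own reads stay between 0.994 and 1.07 times in both.

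The edges of the stretch, with limits set after the counts were seen, were not sharp. From 80.0 to 80.8 Mb, 800 kb that include Myo1d, a myosin motor gene, there were 37 intervals in MTX 1, 44 in MTX 2, 37 in control 1, 34 in control 2 and 26 in IgG. The next 1700 kb, at Asic2, an acid-sensing ion channel gene, held 6, 2, 9, 3 and 3 intervals in the same order. In bins of 100 kb the total over the KDM6A libraries was 41 at 80.0 Mb, 11 in the last bin before 80.8 Mb and 3 in the next. At the other edge, 102.0 to 102.5 Mb held 8 intervals in MTX 1, 4 in MTX 2, 11 in control 1, 1 in control 2 and 2 in IgG, and 102.5 to 103.0 Mb held 25, 20, 28, 16 and 10, with bins that varied between 6 and 28 intervals over the KDM6A libraries.

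The densest windows lay outside the stretch and were dense in each library. The window from 12 to 13 Mb, with Cobl, an actin nucleator gene, had 102 intervals in MTX 1, 99 in MTX 2, 109 in control 1, 92 in control 2 and 86 in IgG. The window from 30 to 31 Mb, with Sptbn1, a spectrin gene, and Psme4, a proteasome activator gene, had 91, 95, 110, 91 and 89. The window from 29 to 30 Mb, with Rtn4, a reticulon gene whose product limits neurite growth, had 69, 96, 99, 95 and 73. The windows from 23 to 24 Mb, with the nuclear exporter Xpo1 and the ubiquitin protease Usp34, and from 33 to 34 Mb, with the nucleolar protein Npm1, followed with means of 86.3 and 84.5 over the KDM6A libraries.

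Apart from the first 3 windows, the 5 with the fewest intervals lay in the sparse stretch, which was chosen by these counts. The window from 81 to 82 Mb, at Asic2, had 2 intervals in MTX 1, 0 in MTX 2, 4 in control 1, 1 in control 2 and 1 in IgG. The window from 90 to 91 Mb, with Hlf, a PAR bZIP transcription factor gene, had 0, 4, 9, 3 and 0. The window from 82 to 83 Mb, with 17 protein-coding genes that include Ccl chemokines and the DNA ligase Lig3, had 5, 2, 9, 8 and 4. The windows from 91 to 92 and from 92 to 93 Mb, with 1 and 0 protein-coding genes, had means of 5.25 and 6.5 over the KDM6A libraries. Log2 ratios were 0.56 to 1.21 over the 5 libraries from 91 to 92 Mb and 0.64 to 0.94 from 92 to 93 Mb.

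Window counts rose and fell together across libraries. Over the 119 windows the Pearson correlation of interval counts was 0.83 to 0.94 for pairs of KDM6A libraries and 0.87 to 0.91 between a KDM6A library and IgG. Among KDM6A pairs it was highest for MTX 1 with control 1 (0.94) and MTX 2 with control 2 (0.92). The pairs within a group had 0.87 in MTX and 0.83 in control. Over the 97 windows outside the stretch the correlation was 0.79 to 0.92 for pairs of KDM6A libraries and 0.80 to 0.89 with IgG. Windows of a chromosome are neighbours and share the genome's composition and mappability, and MTX 1 and IgG share a background library, so these values are descriptions with no test. The relation of interval counts to the number of protein-coding genes was weak over the 119 windows, and its sign depended on the measure and the windows taken. Pearson's r over the 119 windows was −0.03 in MTX 1, −0.23 in MTX 2, −0.02 in control 1, −0.15 in control 2 and −0.17 in IgG. Outside the stretch Spearman's rho was 0.32 in MTX 1, 0.05 in MTX 2, 0.28 in control 1, 0.22 in control 2 and 0.05 in IgG.

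The highest read counts on the chromosome lay where own reads were close to or below background. The interval with the most own reads in every library began near 3184201 within Sfi1, a centrosomal protein gene (chr11:3131850-3203347). It had 451 own and 500 background reads per kb in MTX 1, 518 and 579 in MTX 2, 332 and 429 in control 1, 537 and 580 in control 2, and 402 and 405 in IgG. The deposited fold there was 0.967 in MTX 1, 1.00 in MTX 2, 1.02 in control 1, 0.964 in control 2 and 1.03 in IgG. The next in each library ended at 116759400 and overlapped no protein-coding gene, with log2 ratios of −0.31 in MTX 1, −0.46 in MTX 2, −0.53 in control 1, −0.23 in control 2 and −0.41 in IgG, and deposited folds of 0.782 to 0.915. Whether repeated sequence lies there was not examined.

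The highest log2 ratio of any chromosome 11 interval was in control 1, at chr11:80659201-80659800 within Myo1d, with 38 own and 2 background reads (log2 ratio 3.70). In MTX 1 the highest was 2.00, at Prr11, with 59 own and 14 background reads. MTX 2 had 2.72 between genes with 32 and 4 reads, control 2 had 2.21 with 73 and 15, and IgG had 2.43 with 53 and 9. These were short intervals of 200 to 1200 bp in the 5 libraries, and the IgG value lay within the range of the KDM6A libraries.

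Merging overlapping or adjoining intervals of the 4 KDM6A libraries gave 8805 regions on chromosome 11. All 4 libraries had 949 of them (10.8%), against 1163 of 73553 (1.58%) on the other autosomes. Of the 949, 76.9% (exact 95% interval 74.1 to 79.6%) overlapped an IgG interval, close to the 73.2% (70.5 to 75.7%) on the other autosomes, and 21 lay in the sparse stretch. Intervals of both MTX and neither control library formed 262 regions (2.98%), and those of both control and neither MTX library 300 (3.41%), beside 1.93% and 2.55% on the other autosomes. Both replicates 1 alone formed 338 regions (3.84%) and both replicates 2 alone 544 (6.18%), beside 3.74% and 1.89% on the other autosomes. The lists differ in length, which bears on each of these shares.

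The widest merged region, 136400 bp at chr11:33270401-33406800 over Ranbp17, a nuclear transport receptor gene, held 18 intervals of MTX 1, 17 of MTX 2, 16 of control 1, 11 of control 2 and 15 of IgG. Its log2 ratio was 0.17 in MTX 1, −0.02 in MTX 2, −0.14 in control 1, 0.16 in control 2 and 0.24 in IgG. Usp34 with Ahsa2 and the scaffold gene Tanc2 had regions of 103200 and 102400 bp. The region with the highest log2 ratio in its lowest library, at chr11:15351201-15360200 and outside any protein-coding gene, had 0.75 in MTX 1, 0.72 in MTX 2, 0.78 in control 1 and 0.73 in control 2, with no IgG interval. The 4 values lay close together and did not separate the groups.

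Chromosome 11 intervals overlapped IgG more often than those elsewhere. The share was 43.8% in MTX 1, 40.3% in MTX 2, 38.0% in control 1 and 40.2% in control 2, against 20.7%, 18.9%, 15.5% and 20.7% on the other autosomes. Within the sparse stretch it was 21.7%, 21.3%, 17.0% and 19.6%. A denser list also has more chance to overlap another, and this part of the difference was not tested. With those intervals left out the density ratio to the other autosomes was 3.22 ± 0.34 in MTX and 3.36 ± 1.90 in control libraries (SD, n = 2 each).

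No merged region on chromosome 11 differed between MTX and control cells. Own reads were summed over each library's intervals in regions that all 4 had, and edgeR's quasi-likelihood test with Benjamini-Hochberg adjustment over 2112 regions of the autosomes called 0 of 949 higher (0%) and 0 lower (0%), with 0.05 as the threshold for the adjusted p. An unadjusted p under 0.05 was reached by 40 regions (4.21%), beside 78 of 2112 (3.69%) on all autosomes, and the median log2 difference on chromosome 11 was −0.05. DESeq2's Wald test called 3 higher and 4 lower. Without control replicate 2 edgeR called 4, all higher, and without control replicate 1 it called 1, where the lone control library was assumed to vary like the MTX libraries.

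The region with the lowest p, at chr11:116770001-116776200 over St6galnac1, a sialyltransferase gene, had 68 own reads in MTX 1, 76 in MTX 2, 127 in control 1 and 198 in control 2. Both MTX sums were below both control sums, with a log2 difference of −1.33 ± 0.41 (SE) and an adjusted p of 0.999 in edgeR. Own reads were below background there in all 4 libraries and in IgG. A region at chr11:36363601-36373600 in Tenm2, a teneurin gene of synapse formation, had 70, 78, 128 and 302 own reads in the same order (−1.64 ± 0.53, adjusted p = 0.999). Own reads were summed over intervals of different width in each library, so such differences include the bases listed. Per kb of listed interval the order of the groups turned around in both regions. St6galnac1 had 56.7 own reads per kb in MTX 1, 54.3 in MTX 2, 28.9 in control 1 and 41.25 in control 2. Tenm2 had 38.9, 39, 26.7 and 34.3 in the same order.

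Windows of 1 Mb did not differ between the groups either. The log2 ratio of summed own to summed background reads was compared by limma in 117 chromosome 11 windows, and 0 were called (0%), with 0 at an unadjusted p under 0.05. On all autosomes 1 of 2083 windows was called higher (0.048%) and 0 lower, and 59 (2.83%) had an unadjusted p under 0.05. The MTX minus control difference was between −0.15 and 0.29. Its SE was 0.19 in each of these windows, a single value that limma pooled over the 2083 windows. It is thus not the measured spread of any window. The difference was above 0 in 104 of 117 windows, with a median of 0.06, but this direction flips with the scaling. With the ratios multiplied by the constant in each library's deposited fold, 27.4% of windows were above 0 and the median was −0.04, and with each library centred on its median it was 44.4% and −0.01. The adjusted p was 0.995 or more in each of the 117 windows.

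**Figure D3:**
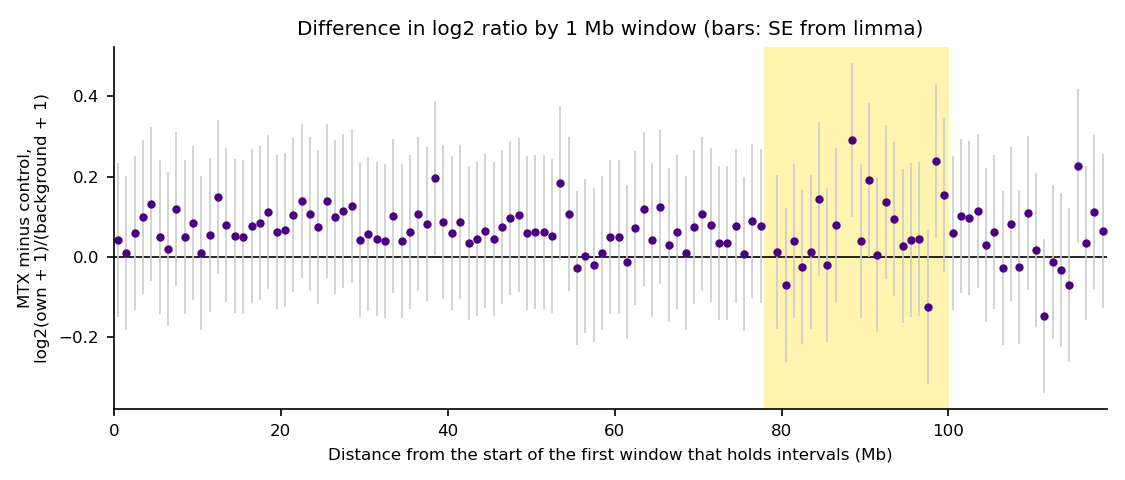
MTX minus control difference in log2 ratio of own to background reads (y axis) for each of the 117 tested 1 Mb windows of chromosome 11, against the distance from the first window that holds intervals (x axis, Mb), with the SE from limma as bars. The SE is 0.19 for all points, a single value pooled over the windows of all autosomes. Most points lie a little above 0 by less than this SE. Their median of 0.06 turns to −0.04 when ratios are scaled by the deposited constant.

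The largest positive difference was in the window from 91 to 92 Mb, where the log2 ratio was 1.21 in MTX 1, 0.65 in MTX 2, 0.72 in control 1 and 0.56 in control 2, on 3, 4, 11 and 3 intervals. The groups overlapped, since MTX 2 was below control 1. In the window from 101 to 102 Mb both MTX libraries, at 0.25 and 0.25, were above both control libraries, at −0.06 and 0.08 (difference 0.24 ± 0.19, SE). The largest negative difference was from 114 to 115 Mb, with 0.11 in MTX 1, −0.13 in MTX 2, 0.11 in control 1 and 0.15 in control 2 (−0.15 ± 0.19). By number of intervals, both MTX libraries were below both control libraries in 12 of 119 windows (10.1%) and above them in 0 (0%), beside 7.96% and 0.8% of 2374 windows on all autosomes. A share so near that of all autosomes is no result about chromosome 11.

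Genes of chromosome 11 carried intervals more often than genes elsewhere, in KDM6A and IgG libraries alike. Of 1609 protein-coding genes, 815 (50.7%) had an interval over the gene in MTX 1, 732 (45.5%) in MTX 2, 906 (56.3%) in control 1, 771 (47.9%) in control 2 and 696 (43.3%) in IgG. On the other autosomes the shares were 27.7%, 25.7%, 39.8%, 21.2% and 23.0% of 19056 genes. All 4 KDM6A libraries had an interval over 443 genes (27.5%), against 10.8% on the other autosomes, and no KDM6A library had one over 395 (24.5%), against 46.9%. Within the sparse stretch 33 of 437 genes (7.55%) had all 4, and in the rest 410 of 1172 (35.0%).

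The share of genes with intervals increased with gene length. All 4 libraries had an interval over 21 of 653 chromosome 11 genes under 10 kb (3.22%), 200 of 690 genes of 10 to 50 kb (29.0%), 177 of 219 of 50 to 200 kb (80.8%) and 45 of 47 over 200 kb (95.7%). The other autosomes had 0.419%, 4.41%, 30.6% and 64.8% in the same classes. The shares were higher on chromosome 11 within each length class.

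**Figure D4:**
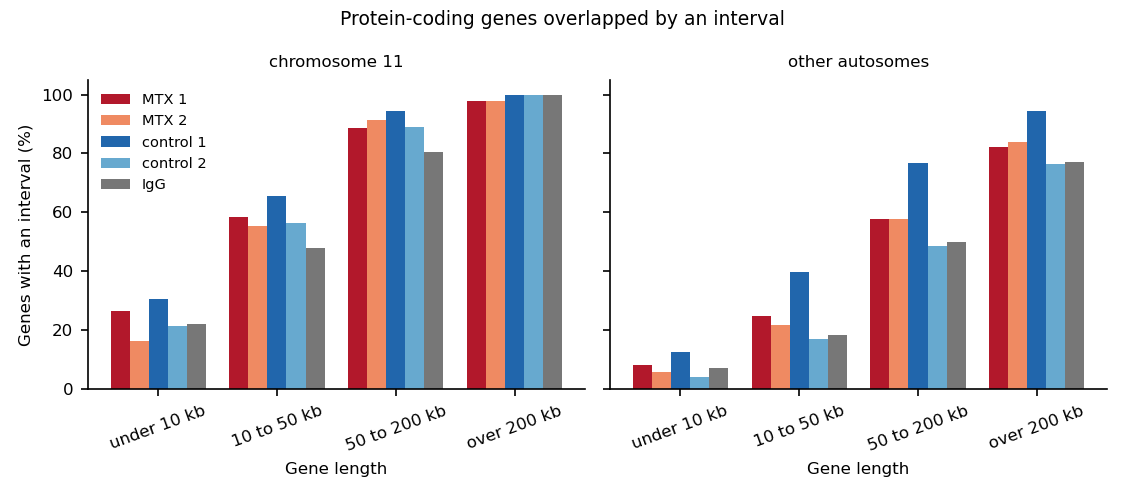
Percentage of protein-coding genes with an interval over the gene (y axis) by gene length (x axis) in each library, for chromosome 11 (left) and the other autosomes (right). Bars start at 0. In genes of 10 to 50 kb the share on chromosome 11 runs from 47.8% in IgG to 65.7% in control 1, and on the other autosomes from 17.0% in control 2 to 39.8% in control 1.

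The genes with the highest log2 ratio in their lowest library, among those with intervals in all 4 KDM6A libraries, were led by a receptor gene of inhibitory synapses. Gabrb2, a subunit of the GABA-A receptor (chr11:42419515-42632591), had 33.0 own and 21.8 background reads per kb in MTX 1, 35.5 and 21.3 in MTX 2, 27.6 and 19.5 in control 1, 36.0 and 22.4 in control 2, and 33.6 and 22.4 in IgG. Its log2 ratio was 0.59 in MTX 1, 0.73 in MTX 2, 0.50 in control 1, 0.69 in control 2 and 0.58 in IgG, so IgG lay within the KDM6A range.

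Car10, a carbonic anhydrase-related gene inside the sparse stretch (chr11:93096805-93601751), had log2 ratios of 0.42 in MTX 1, 0.73 in MTX 2, 0.65 in control 1, 0.48 in control 2 and 0.61 in IgG, on 4 to 10 intervals. Sgcd, which encodes a sarcoglycan of muscle membranes and spans 1018 kb, had 31 to 37 intervals per library and ratios of 0.49 and 0.43 in MTX, 0.38 and 0.42 in control libraries and 0.54 in IgG. On the counts as deposited, both MTX values of Sgcd were just above both its control values, by a difference of 0.06 ± 0.21 (SE) in limma. The groups overlapped at Gabrb2 and Car10. The log2 of the deposited constant was 0.40 in control 1, 0.10 in MTX 1 and 0.16 in MTX 2. With it added, control 1 lay above both MTX libraries at Sgcd.

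The lipid transporter genes Abca6 and Atp10b, the phosphatidylserine receptor Timd4, the adhesion-related Ccdc85a and the secreted BMP antagonist Vwc2 were also among the 10, and their log2 ratios ran from 0.31 to 0.85 over the 4 KDM6A libraries. These 5 also had IgG intervals. Their MTX minus control differences, between −0.20 and 0.15, had limma SEs of 0.21 to 0.23.

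Intervals in all 4 KDM6A libraries and none in IgG were found at 67 genes (4.16%), beside 1.81% on the other autosomes. Genes with all 4, with or without IgG, were also more frequent on chromosome 11 (27.5% against 10.8%). Of those genes, 67 of 443 on chromosome 11 and 344 of 2049 elsewhere had no IgG interval. The higher share is thus no result about a lack of IgG. Apoh, which encodes a phospholipid-binding plasma protein (chr11:108395297-108414396), led by the lowest ratio. It had 36.0 own and 21.0 background reads per kb in MTX 1, 70.0 and 30.0 in MTX 2, 28.6 and 20 in control 1, and 44.6 and 34.2 in control 2. Its log2 ratios were 0.77 and 1.20 in MTX and 0.51 and 0.38 in control libraries, on 1 interval per library. On the counts as deposited they did not overlap between the groups (difference 0.54 ± 0.23, SE, adjusted p = 0.999 by limma). Adding the log2 of the deposited constant, 0.40 in control 1 and 0.10 in MTX 1, puts control 1 above MTX 1, so the groups then overlap. C1qtnf2, a secreted C1q-like protein gene, had 0.42 in MTX 1, 1.50 in MTX 2, 0.58 in control 1 and 0.26 in control 2, so 1 MTX library stood above the other 3. Olfr389 had 0.55, 0.42, 0.28 and 0.33 in the same order.

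The other 5 genes of this rule were Map2k6, a stress-activated kinase, Pik3ip1, an inhibitor of PI3 kinase, Lypd8, Rps6kb1, the ribosomal S6 kinase, and Aatf, an RNA polymerase II interacting factor. Their log2 ratios ran from 0.05 to 0.97 over the 4 libraries. Rps6kb1 and Aatf lie in the sparse stretch, with 1 to 5 intervals per library. The lack of an IgG interval at these genes means that none was listed in the 1 IgG library.

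Few genes had intervals in 1 group alone. Both MTX and neither control library had one at 17 genes (1.06%), the same share as on the other autosomes (1.06%). Both control and neither MTX library had one at 29 genes (1.80%), beside 1.82% elsewhere. The shares match those elsewhere, so the counts are no result about chromosome 11.

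Of the 17 MTX-only genes 6 lay in the sparse stretch (1.37% of its 437 genes) and 11 in the rest (0.939% of 1172). The 5 with the highest lower ratio were all in the stretch. Cdc6, a replication licensing factor (chr11:98907709-98923942), had log2 ratios of 0.11 in MTX 1 and 0.72 in MTX 2 and no interval in the other 3 libraries. Gdpd1, a phosphodiesterase gene, had 0.35 and 0.77, with an IgG interval at 0.43. Smarce1, a BAF chromatin remodelling subunit, had 0.82 and 0.05, with an IgG interval at 0.20. Slfn4 and Lsm12, an RNA-binding protein gene, had values of 0.07 to 0.31. At Cdc6, Gdpd1, Smarce1 and Slfn4 these values rest on 1 interval per library, and at Lsm12 on 2 in MTX 1 and 1 in MTX 2.

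Among control-only genes, Wnt3a, a Wnt ligand (chr11:59248036-59290751), had 2 intervals with a log2 ratio of 0.21 in control 1 and 4 with 0.29 in control 2, and 1 in IgG at 0.06. Socs7, a suppressor of cytokine signalling, had 0.21 and 0.28 and none in IgG. Slfn3 had 0.25 and 0.21, and it lies beside the MTX-only Slfn4. The olfactory receptors Olfr411 and Olfr30 had 0.48 and 0.41, and 0.98 and 0.21, with an IgG interval at 0.20 at Olfr411. A gene without an interval can still have reads, which the lists do not give, so none of these was tested.

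No gene differed between MTX and control cells among the 443 with intervals in all 4 libraries. limma, adjusted over 2492 genes of the autosomes, called 0 higher (0%) and 0 lower. An unadjusted p under 0.05 was reached by 6 genes (1.35%), beside 87 (3.49%) on all autosomes. Without MTX replicate 1 it called 1 of 508 genes, lower. The median difference was 0.06, which turned to −0.04 with the deposited constants and to −0.001 with centring. The lowest p was at Dnah17, an axonemal dynein gene named here after its values were seen, with log2 ratios of 0.05 and 0.45 in MTX and −0.57 and −0.19 in control libraries (difference 0.63 ± 0.24, SE, adjusted p = 0.999).

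Genes of the KDM6 and Polycomb systems had no pattern that set the groups apart. Suz12, a core subunit of Polycomb repressive complex 2 (chr11:79993106-80034123), lies just before the sparse stretch and had 6 intervals in each of the 5 libraries. Its log2 ratio was 0.09 in MTX 1, 0.09 in MTX 2, −0.12 in control 1, 0.17 in control 2 and 0.21 in IgG. Kdm6b, the related H3K27 demethylase, had intervals in MTX 1, control 1 and IgG, at 0.10, −0.06 and 0.68. Ezh1, a methyltransferase of the Polycomb complex, had 0.29 in MTX 1, 0.44 in control 1 and −0.23 in control 2. Of 7 listed members, 4 had an interval in MTX 1, 1 in MTX 2, 3 in control 1, 3 in control 2 and 4 in IgG. Beside them stand 50.7%, 45.5%, 56.3%, 47.9% and 43.3% of all chromosome 11 genes in the same order. Suz12 was the 1 member that could be tested (difference 0.06 ± 0.22, SE).

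Genes of the clusters in the sparse stretch had few intervals, as did other genes there, where 24.9% of all genes had one in MTX 1, 17.2% in MTX 2, 33.9% in control 1, 17.2% in control 2 and 15.6% in IgG, and 8.33%, 3.24%, 14.8%, 5.56% and 4.63% of those under 10 kb. The counts are thus no result about the clusters. Of the 10 Hoxb genes, which pattern the body axis, 3 had an interval in MTX 1, 0 in MTX 2, 1 in control 1, 1 in control 2 and 2 in IgG, and 6 had none in any library. Hoxb7 had log2 ratios of 0.41 in MTX 1 and 0.70 in control 2, Hoxb9 had 1.10 in MTX 1, and Hoxb3 had 0.09 in MTX 1, 0.28 in control 1 and −0.04 in IgG. Of 26 type I keratin genes, 0, 1, 2, 2 and 0 had an interval in the same order of libraries. The Ccl chemokines had 0, 0, 0, 3 and 1 of 11, and the Schlafen genes 1, 1, 2, 1 and 0 of 8. Neighbouring genes of a cluster can share 1 interval, as Ccl3 and Ccl4 did in control 2, and similar copies can share reads.

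Olfactory receptor genes lay mostly outside the stretch. Of 83 genes, 22 had an interval in MTX 1, 38 in MTX 2, 19 in control 1, 43 in control 2 and 22 in IgG. Among all chromosome 11 genes under 10 kb the shares were 26.3%, 16.1%, 30.5%, 21.3% and 21.9% in the same order. The receptor counts were higher in both libraries numbered 2 than in both numbered 1, which was not tested, and neighbouring receptors can share 1 interval. All 4 libraries had 6 of them, with a median MTX minus control difference of −0.02 beside 0.06 over all chromosome 11 genes tested, and 0 of the 6 were called.

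Receptor genes of the nervous system on chromosome 11 include long genes, and 97.9% to 100% of the chromosome's genes over 200 kb had an interval in each library. All 5 listed GABA-A and glutamate receptor genes had an interval in MTX 2, both control libraries and IgG, and 3 did in MTX 1. Gria1, an AMPA receptor subunit, had log2 ratios of 0.37, 0.36, 0.26, 0.32 and 0.72 in MTX 1, MTX 2, control 1, control 2 and IgG. Of 9 neural tube and patterning genes, 6, 6, 8, 6 and 8 had an interval in the same order, and Nog, a BMP antagonist in the stretch, had none. Shares of all chromosome 11 genes were 50.7%, 45.5%, 56.3%, 47.9% and 43.3%. Cobl had 32 intervals in MTX 1, 22 in MTX 2, 32 in control 1, 27 in control 2 and 23 in IgG, with ratios of −0.23 to 0.14. Of these members 5 neural tube genes could be tested, with 0 called and a median difference of 0.09.

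Genes of folate and nucleotide metabolism, chosen because the labels name folate deficiency, had 3 of 7 with an interval in MTX 1, 3 in MTX 2, 4 in control 1, 4 in control 2 and 4 in IgG. Shares of all chromosome 11 genes were 50.7%, 45.5%, 56.3%, 47.9% and 43.3% in the same order. Shmt1, the cytosolic serine hydroxymethyltransferase, had log2 ratios of 0.35 in MTX 1, −0.14 in MTX 2, −0.12 in control 1, 0.02 in control 2 and −0.10 in IgG. Pemt, a methyltransferase of phosphatidylcholine synthesis, had 0.12, −0.01, −0.27, 0.09 and −0.13. The MTX minus control difference was 0.16 ± 0.23 at Shmt1 and 0.15 ± 0.22 at Pemt (SE). Slc46a1, the proton-coupled folate transporter, had an interval in control 1 at 0.60 and in control 2 at −0.21 and none in the MTX or IgG libraries.

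Wnt pathway genes had an interval at 6 of 12 in MTX 1, 7 in MTX 2, 8 in control 1, 8 in control 2 and 7 in IgG. Among all chromosome 11 genes the shares were 50.7%, 45.5%, 56.3%, 47.9% and 43.3% in the same order. Nlk, a kinase of the pathway, had 11, 13, 13, 13 and 14 intervals, and Tcf7, a transcription factor at its end, had log2 ratios of 0.05 and 0.32 in MTX and 0.04 and 0.04 in control libraries. Pluripotency and LIF signalling genes had 3, 2, 4, 2 and 3 of 5. Dppa1, named for developmental pluripotency, had 1.36 in MTX 1, 0.35 in MTX 2, 0.78 in control 2 and 0.45 in IgG, and Socs3, an inhibitor of LIF signalling, had −0.33 in MTX 1, 0.32 in control 1 and −0.13 in IgG. Imprinted genes, led by Commd1 and Grb10, had 4, 3, 4, 4 and 4 of 4. Commd1, Grb10 and Ddc are 50 to 200 kb long. In that class 88.6%, 91.3%, 94.5%, 89.0% and 80.4% of chromosome 11 genes had an interval in the same order. Zrsr1, the last of the list, lies within Commd1, so both can share intervals.

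Chromatin regulators had an interval at 6 of 10 in MTX 1, 4 in MTX 2, 3 in control 1, 4 in control 2 and 8 in IgG, beside 50.7%, 45.5%, 56.3%, 47.9% and 43.3% of all chromosome 11 genes. Ncor1, a nuclear receptor corepressor, had 17, 14, 21, 8 and 12 intervals, and Phf12, a PHD finger protein, had log2 ratios of −0.11, −0.39, −0.23, −0.07 and 0.03. Genes of the DNA damage response had 5, 5, 7, 4 and 5 of 7, among them Brip1, a helicase, with 0.29, 0.36, 0.17, 0.54 and 0.48. Cytosolic ribosomal protein genes had 2, 2, 3, 1 and 5 of 7 and skeletal myosin heavy chains 2, 5, 5, 5 and 4 of 6. In these lists 0 members passed the test in either direction, beside 0 of all 443 genes tested.

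Promoter composition differed between replicate numbers more than between groups, and the IgG library is also numbered 1. An interval overlapped 444 of the 2289 promoters by at least 1 bp in MTX 1, 305 in MTX 2, 518 in control 1, 293 in control 2 and 330 in IgG. Their median number of CG in 250 bases was 14 in MTX 1, 4 in MTX 2, 14 in control 1, 3 in control 2 and 13.5 in IgG, against 8 over all promoters. Their median GC content was 58.8%, 48.8%, 58.4%, 48.8% and 58.8% in the same order, against 54.8%. At least 10 CG were found in 66.2%, 28.5%, 62.4%, 24.2% and 59.1% of them, and in 45.4% of all. Both replicates 1 and neither replicate 2 had 124 promoters with a median of 17 CG, and the reverse case had 53 with a median of 3. The values of the groups overlapped for each of these measures. Outside the sparse stretch the medians were 14, 4, 14, 3 and 14 CG.

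**Figure D5:**
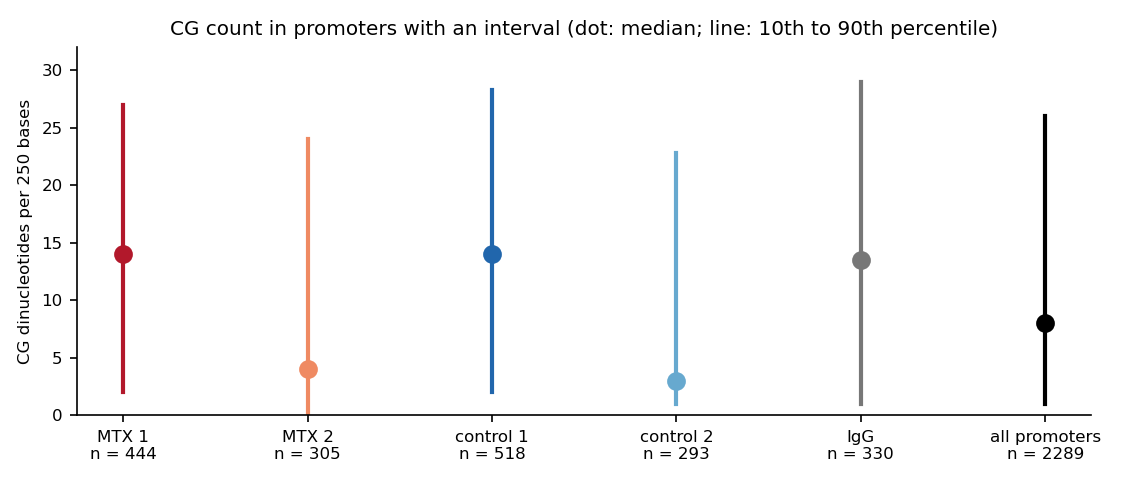
Number of CG dinucleotides in the 250 bases upstream of the start (y axis) for chromosome 11 promoters with an interval in each library and for all 2289 promoters (x axis). Dots are medians and lines run from the 10th to the 90th percentile of promoters. MTX 1, control 1 and IgG, all numbered 1, have medians of 14, 14 and 13.5, while MTX 2 and control 2 have 4 and 3.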

How the data were processed

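ChIP-seq interval lists of 2 MTX KDM6A, 1 IgG and 2 control KDM6A libraries were used, grouped by sample title; the 4 inputs were not used here. The submitters' processing notes name Bowtie2 and the mm10 build. The interval caller is not named in the labels or files. The deposited columns hold whole read counts, own and background, with no normalization. The deposited fold is a ratio of these counts times 1 constant per list (1.04 to 1.32), and the deposited p-value and adjusted p-value follow from the same counts. Lists are called per library on a 200 bp grid. Full depth is unknown, as lists hold only reads inside intervals, 555506 to 911825 own reads per library on chromosome 11.

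Positions are counted from 1. Chromosome length was taken as the end of the last gene or interval, 121.945 Mb for chromosome 11. Genes and promoters came from RefSeq (GRCm38.p6, the same build as mm10); an overlap of 1 bp counted, and whole intervals were summed. Windows took intervals by midpoint. Regions were tested with edgeR 4.0.16 on summed own counts, windows and genes with limma 3.58.1 on log2((own + 1)/(background + 1)), all across the autosomes with Benjamini-Hochberg adjustment, in R 4.3.3; DESeq2 1.42.0 was an alternative. Group values used exact permutation tests. Scripts were tested on simulated data. The 95% interval of a share is Clopper-Pearson and covers counting error alone.

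Named genes were the 10 with the highest log2 ratio in the lowest KDM6A library, the 8 likewise with no IgG interval, the 5 MTX-only and 5 control-only by the same measure, and up to 4 members of each gene list described, without predicted symbols. Windows were the 5 with the most and the fewest intervals and those with the largest differences. The members and lists were chosen with earlier results of these data known. Other genes named were chosen after their values were seen, and some genes that a rule takes in are not reported here.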

Additional observations from a re-analysis of the deposited data

How the results depend on the processing

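Of 54 alternatives computed over the 5 comparisons, 46 were classed as the same. For the density and the log2 ratio of chromosome 11 this means the same direction and side of the threshold. For regions, windows and genes only the number called was compared, not the direction of the median difference. In windows that median turned from 0.06 to −0.04 with the deposited constants, which still counts as the same. The MTX minus control difference in density ratio, −0.04, was 0.0083 with intervals of a deposited adjusted p under 0.05 and 0.00595 in the better 50% of each list, and ran from −1.79 to 1.70 when 1 library was left out (1.70 without control replicate 2, −1.79 without control replicate 1). The causes were not tested. Each of these differences is smaller than the control SD of 2.47. The density ratio itself had a mean of 4.46 over the 4 KDM6A libraries. This mean was 3.34 with a deposited adjusted p under 0.05 and 2.45 in the better 50% of each list. Control 1 was the lowest of the 4 in the better 50%, at 1.56. The number of chromosome 11 regions called, 0, was 7 with DESeq2's Wald test and 0 to 4 with 1 library left out, and the number of genes called, 0, was 0 to 1. With 1 library left out more regions and genes could be tested, and the lone library was assumed to vary like the other group. The chromosome 11 minus other autosomes log2 ratio ran from −0.27 to −0.12 over its alternatives and from −0.28 to −0.25 with 1 library left out. Leaving out 81 to 103 Mb, and scaling or centring the ratios, were chosen after seeing the data.

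Among features with intervals in all 4 KDM6A libraries, same-numbered libraries of the 2 groups deviated together with a correlation of 0.12 over regions, −0.01 over windows and 0.00 over genes. These values concern own reads or read ratios, and the labels link the 2 pairs only by number. The lists were alike by number in other measures. Promoters with an interval had medians of 14 CG in MTX 1 and control 1, and 4 and 3 in MTX 2 and control 2. With the replicate number as a block the number called was 0 for regions, 0 for windows and 0 for genes of chromosome 11, and the density difference was −0.04.

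Limits: with 2 libraries a group, 1 IgG library from MTX cells and medians of 86 to 143 own reads per chromosome 11 interval, small differences were not detectable. Absence from a list is not absence of reads. Background inside listed intervals is not background over the chromosome. Density depends on an interval caller that the labels and files do not name.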
